A study of Rattus norvegicus with 6 samples.

Results

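The genes that build and run the primary cilium were followed in rat nucleus pulposus cells, which come from the soft centre of the spinal disc, after exposure to recombinant Sonic hedgehog (rShh). The 51 genes were chosen by name, for the part their proteins play in the cilium, but with earlier results of these data known. A row among the 19088 genes of the deposited table was found for 49 of them. Ift172 and Tctn2 were not analysed here. The 49 genes comprised 11 of the intraflagellar transport complex IFT-B, 6 of IFT-A, 5 of the transport motors, 9 of the BBSome and its chaperonins, 13 of the transition zone and ciliary base, and 5 ARL GTPases and membrane delivery factors.

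The rShh group consisted of 3 libraries of primary cells from SD rats given rShh at 200 ng/ml for 48 h. The Control group consisted of 3 libraries of the same kind of cells given only DMSO, the solvent of rShh, for 48 h. Both groups grew in medium with 10% fetal bovine serum. The labels do not say whether the libraries came from separate cultures or animals, so p-values measure only the spread between these libraries, which may be technical. Total counts per library were 65116846 to 70031072 in the rShh group and 50758195 to 55501124 in the Control group.

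The primary cilium is a solitary antenna that grows from the mother centriole when a cell stops dividing and is taken down again before mitosis. Trains of IFT-B and IFT-A proteins carry cargo along its microtubules, outward on kinesin and back on dynein, while the BBSome ferries membrane receptors and the transition zone gates the entrance. In vertebrates the Hedgehog signal is read in the cilium: Patched leaves it, Smoothened accumulates in it, and GLI proteins are processed there. Nucleus pulposus cells descend from the notochord, a source of Sonic hedgehog in the embryo.

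The libraries differed in more than the labelled treatment. The Y-linked transcripts Ddx3, Eif2s3y and Kdm5d had 2235 to 7120 counts in each rShh library and 0 in every Control library. The labels give no sex, so the treatment and the source of the cells cannot be told apart in any result here. All 10 proliferation markers were higher in rShh, with a summed level of 629.8 to 646.9 CPM (counts scaled to library size) in rShh libraries against 157.3 to 163.0 CPM in Control libraries. Of 15 nucleus pulposus and notochord markers 11 had a row, and of the 10 tested 5 were higher and 5 lower. Acan averaged 586 ± 14.5 CPM in rShh and 56.5 ± 7.97 CPM in Control, Krt8 averaged 2.11 ± 0.24 CPM in rShh and 12.6 ± 0.77 CPM in Control (SD, n = 3 each), and Krt18 stayed below 1 CPM in every library. Krt19, T, Noto and Shh were not analysed here. Of 14 markers of multiciliated cells, 13 had a row and 10 of these stayed below 1 CPM in every library. Their sum was 8.49 to 9.31 CPM in rShh and 5.99 to 7.04 CPM in Control, with Ccdc39 the highest at 6.75 ± 0.44 CPM in rShh and 3.01 ± 0.04 CPM in Control (SD, n = 3 each), and Foxj1 was not analysed here. The marker lists of leukocytes, endothelium, epithelium and neural cells each summed to at most 15.5 CPM in any library of either group. That of skeletal muscle summed to 85.8 to 108 CPM in rShh and 57.1 to 93.4 CPM in Control, mainly Acta1, which did not pass. The part of these markers in the results below was not tested.

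All 49 cilium genes passed the low-count filter. With rShh 20 of them rose (40.8%), 11 fell (22.4%) and 18 did not pass the test (edgeR quasi-likelihood test, Benjamini-Hochberg adjusted p below 0.05 over 14775 genes). Over all genes tested 60.3% passed, 31.5% higher and 28.8% lower, so the share of cilium genes that changed was near the background. The median log2 change was 0.13 for the cilium genes and 0.01 for all genes tested, and the median size of a change regardless of direction was 0.35 for the cilium genes and 0.49 for all. Every rShh library was above every Control library for 23 cilium genes and below it for 12, against 35.7% and 32.5% of all genes tested. A change beyond 1.2-fold was called for 18 cilium genes, 11 higher and 7 lower (edgeR glmTreat), against 44.3% of all genes tested, 24.9% higher and 19.4% lower. Beyond 1.5-fold 7 were called: Cep290, Ift74, Bbs7, Ofd1, Arl13b and Ift80 were higher and Tctn1 was lower, against 22.1% of all genes tested. In bulk RNA, fewer cells with a transcript and less of it per cell cannot be told apart.

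**Figure D1:**
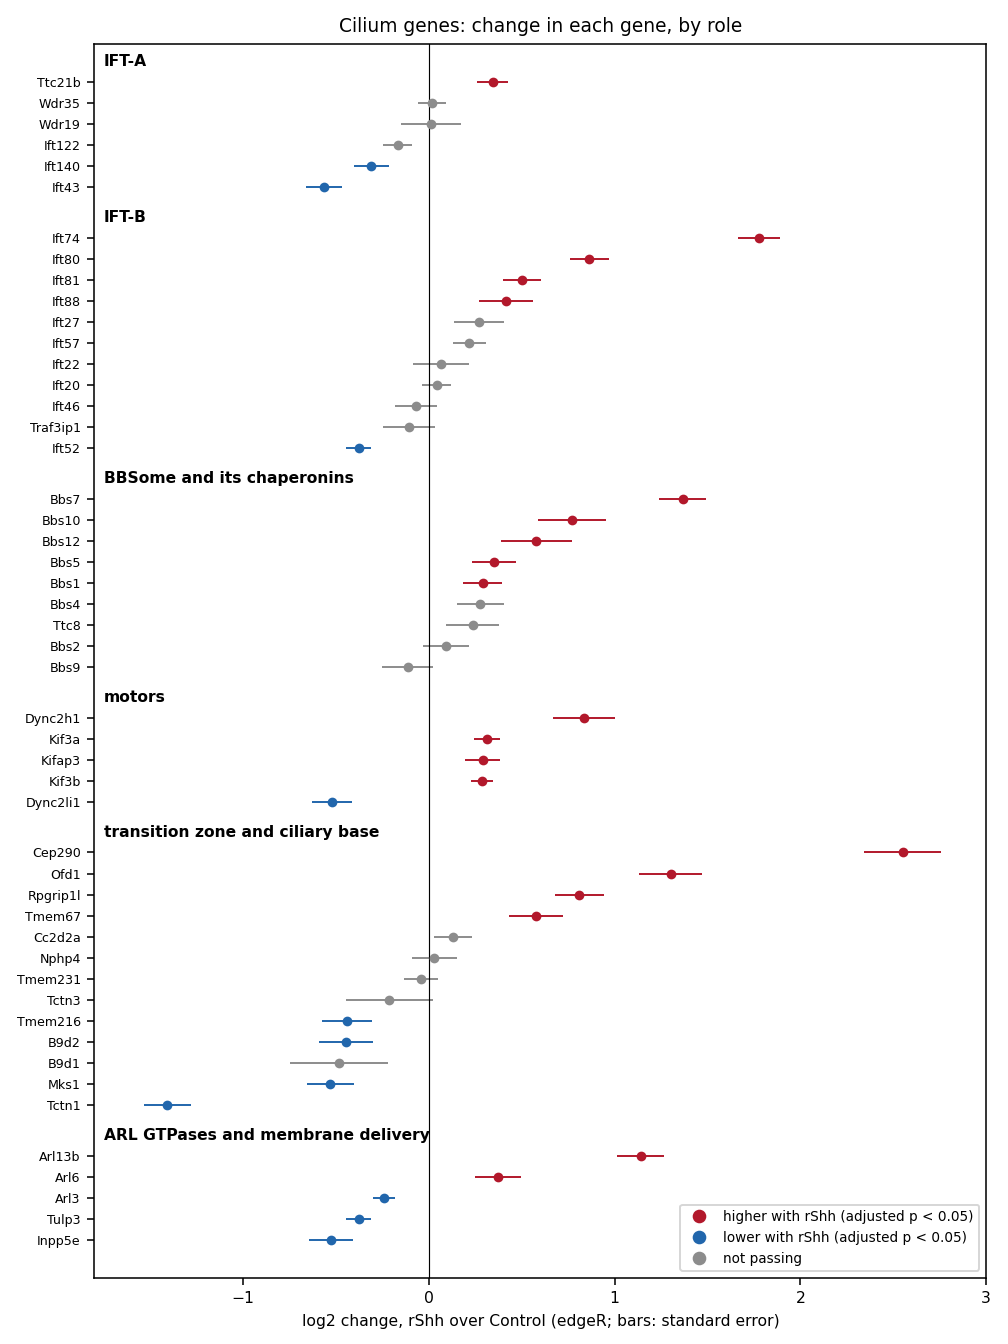
The log2 change (rShh over Control) of each of the 49 cilium genes is plotted with its standard error, grouped by role, in red where the gene rose, blue where it fell and grey where it did not pass. Cep290 at 2.55 and Tctn1 at -1.41, both of the transition zone, lie at the ends of the range.

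Promoters of the cilium genes are described for 3 short motifs, as RFX factors are known to drive ciliary genes and GLI factors carry the Hedgehog signal. These motifs were chosen with earlier results of these data known, and other motif strings were tried and are not reported. The shares below are therefore those of retained strings. RefSeq promoters of build GRCr8, 250 bases before to 50 bases after the start, were matched by symbol for 41 of the 49 genes. The RFX core GTTGCC, searched on both strands, stood in 20 of the 41 (48.8%), against 12.5% of 10129 promoters of genes tested. The longer RFX frame, GTNNCC followed after 2 bases by its reverse complement, stood in 8 of the 41 (19.5%), against 2.1%. The GLI core GACCACCCA stood in none of the 41, against 0.346%, which says only that these letters are not in these windows. The RFX core was present in 6 of 14 promoters of genes that rose, 4 of 10 of genes that fell and 10 of 17 of genes that did not pass, and the longer frame in 1 of 14, 3 of 10 and 4 of 17. A match is a description of the letters and not a site in use. The promoters below carry the RFX core in capitals on either strand and belong to a pair of genes that fell, Tctn1 and Mks1, and a pair that rose, Ift81 and Ift88. Their windows are chr12:39970344-39970643, chr10:73152971-73153270, chr12:39618372-39618671 and chr15:35688737-35689036, all on the plus strand. Tctn1 and Ift81 each hold 2 cores on opposite strands with 1 base between them, in opposite orders.
Tctn1: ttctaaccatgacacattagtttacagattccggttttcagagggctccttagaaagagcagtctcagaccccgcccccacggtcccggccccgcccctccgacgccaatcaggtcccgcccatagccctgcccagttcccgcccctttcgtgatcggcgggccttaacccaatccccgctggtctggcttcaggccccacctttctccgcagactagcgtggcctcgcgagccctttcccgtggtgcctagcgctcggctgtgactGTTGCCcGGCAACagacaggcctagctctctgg
Mks1: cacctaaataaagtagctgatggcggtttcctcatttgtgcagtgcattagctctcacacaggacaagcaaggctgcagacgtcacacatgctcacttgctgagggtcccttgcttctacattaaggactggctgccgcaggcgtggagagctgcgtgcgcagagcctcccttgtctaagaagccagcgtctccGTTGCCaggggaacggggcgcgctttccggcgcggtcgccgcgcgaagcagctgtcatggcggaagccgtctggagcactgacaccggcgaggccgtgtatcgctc
Ift81: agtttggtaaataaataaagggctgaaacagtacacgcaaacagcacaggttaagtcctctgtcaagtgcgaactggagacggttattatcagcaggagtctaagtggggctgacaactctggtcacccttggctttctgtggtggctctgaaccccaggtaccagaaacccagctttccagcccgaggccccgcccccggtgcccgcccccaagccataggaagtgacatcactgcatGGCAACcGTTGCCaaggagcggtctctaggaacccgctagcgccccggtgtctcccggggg
Ift88: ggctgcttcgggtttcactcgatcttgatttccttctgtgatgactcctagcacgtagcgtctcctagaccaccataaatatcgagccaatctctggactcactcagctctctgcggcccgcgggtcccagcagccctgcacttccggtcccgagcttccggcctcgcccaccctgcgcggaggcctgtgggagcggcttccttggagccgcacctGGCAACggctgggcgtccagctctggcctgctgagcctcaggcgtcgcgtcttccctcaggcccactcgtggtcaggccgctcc

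Of the 11 IFT-B genes 4 rose, 1 fell and 6 did not pass, where 31.5% of all genes tested rose and 28.8% fell. Their median log2 change was 0.22. Ift74 and Ift81 encode partners that together bind the tubulin carried into the cilium. Ift74 (ENSRNOG00000008075, chromosome 5, 113592919 to 113682484 in the deposited table) had 17.6, 16.2 and 18.3 CPM in rShh libraries, against 4.93, 5.31 and 4.91 CPM in Control libraries. The groups lay far apart, and Ift74 rose 3.43-fold, a log2 change of 1.78 ± 0.11 (SE, adjusted p = 5.82e-07). Its partner Ift81 had 15.9, 16.0 and 16.3 CPM in rShh libraries, against 11.1, 10.6 and 12.3 CPM in Control libraries. That was again without overlap but a smaller rise, 0.50 ± 0.10 on the log2 scale (adjusted p = 0.00158). Per length, the ratio of Ift74 to Ift81 was 0.971 to 1.08 in rShh libraries and 0.384 to 0.481 in Control libraries, without overlap (the pair was chosen after its values were seen).

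Ift80, which sits in the peripheral part of IFT-B and is mutated in a human skeletal ciliopathy, had 37.7, 33.3 and 30.8 CPM in rShh libraries, against 20.0, 19.2 and 16.7 CPM in Control libraries. The lowest rShh library stood well above the highest Control library, and the log2 change was 0.86 ± 0.10 (adjusted p = 5.05e-05). Ift88, the core subunit lost in the Oak Ridge polycystic kidney mouse, had 11.8, 12.9 and 11.9 CPM in rShh libraries, against 9.04, 11.0 and 7.51 CPM in Control libraries. Its groups stood close together, and the log2 change of 0.42 ± 0.14 passed narrowly (adjusted p = 0.0297). The call for Ift88 was lost without Control replicate 1 (adjusted p = 0.0554), Control replicate 3 (0.0808), rShh replicate 1 (0.059), rShh replicate 2 (0.0993) or rShh replicate 3 (0.0628).

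Ift52, the core subunit that ties the parts of IFT-B together, moved the other way. It had 38.6, 40.7 and 37.2 CPM in rShh libraries, against 48.8, 52.6 and 50.0 CPM in Control libraries. Every rShh library was below every Control library, and Ift52 fell by 0.38 ± 0.07 on the log2 scale (adjusted p = 8.32e-04). Ift20, which also works at the Golgi in sending membrane cargo to the cilium, had 26.9, 26.1 and 28.9 CPM in rShh libraries, against 26.9, 27.1 and 25.5 CPM in Control libraries. The groups overlapped, with a log2 change of 0.04 ± 0.08 (adjusted p = 0.666). Ift57, Ift46, Ift22, Ift27 and Traf3ip1 did not pass either, with log2 changes between -0.11 for Traf3ip1 and 0.27 for Ift27.

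**Figure D2:**
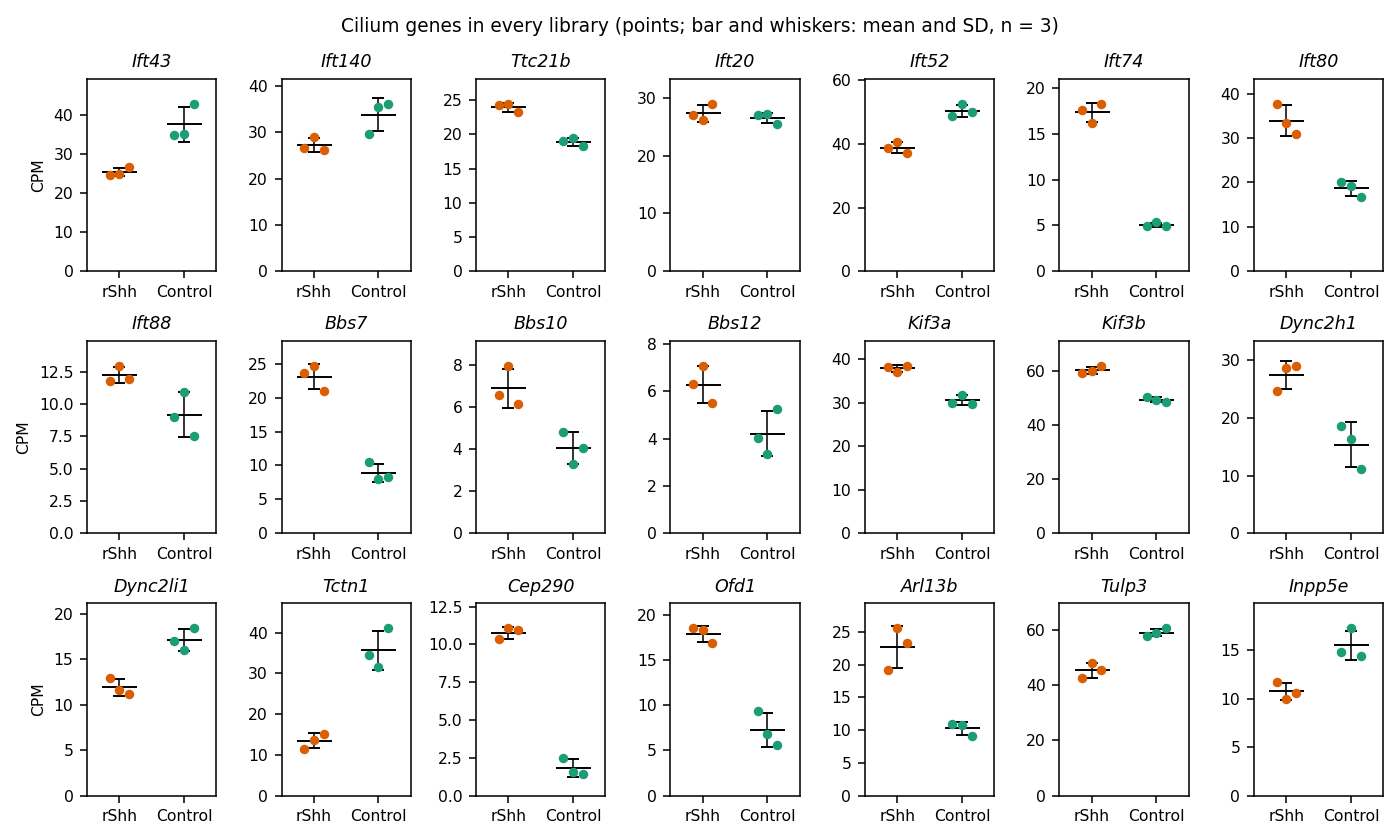
Each panel shows 1 cilium gene in CPM (vertical axis, from 0) in 3 rShh and 3 Control libraries, with points for libraries and a bar with whiskers for the mean and SD. The groups are apart in 20 of the 21 panels, while those of Ift20 overlap. The panels show the 3 genes with the smallest p in each role group, and Ift88, Kif3a, Arl13b, Ift20 and Cep290. Separate groups are therefore frequent here by choice. Groups did not overlap for 35 of all 49 cilium genes and for 68.1% of all genes tested.

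Of the 6 IFT-A genes, whose proteins turn trains round for the way back and bring membrane receptors in, 1 rose, 2 fell and 3 did not pass. Over all genes tested 31.5% rose and 28.8% fell. The median log2 change of the IFT-A genes was -0.08. Ift43, a small subunit, had 24.6, 24.9 and 26.6 CPM in rShh libraries, against 34.7, 35.1 and 42.7 CPM in Control libraries. The rShh libraries were close to each other and all below the Control libraries, and Ift43 fell by 0.56 ± 0.10 on the log2 scale (adjusted p = 5.12e-04). Ift140, a core subunit, had 26.7, 29.0 and 26.2 CPM in rShh libraries, against 29.7, 35.5 and 36.2 CPM in Control libraries. The groups nearly touched, and Ift140 fell by 0.31 ± 0.09 (adjusted p = 0.0154). That call was lost without Control replicate 2 (adjusted p = 0.0578), rShh replicate 1 (0.0573) or rShh replicate 3 (0.0644). Ift140 shares 25402 bases with Tmem204 on the other strand, which had a log2 change of 0.28. Tmem204 had 7850 counts over all libraries, against 10874 for Ift140.

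Ttc21b, which modifies many ciliopathies in humans, was the IFT-A gene that rose. It had 24.3, 24.5 and 23.3 CPM in rShh libraries, against 19.0, 19.5 and 18.3 CPM in Control libraries. The groups were tight and separate, with a log2 change of 0.34 ± 0.08 (adjusted p = 0.00435). Ift122, Wdr19 and Wdr35 did not pass, at log2 changes of -0.17, 0.01 and 0.02. No IFT-A gene changed beyond 1.5-fold.

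All 5 motor genes passed, 4 higher and 1 lower, where 60.3% of all genes tested passed, 31.5% higher and 28.8% lower. Kif3a and Kif3b encode the motor chains of kinesin-2, which drives outward transport, and Kifap3 its non-motor subunit. Kif3a had 38.3, 37.1 and 38.4 CPM in rShh libraries, against 30.1, 31.9 and 29.8 CPM in Control libraries. Kif3b had 59.1, 59.8 and 61.8 CPM in rShh libraries, against 50.3, 49.4 and 48.4 CPM in Control libraries. Neither gene's groups overlapped, and the log2 changes were nearly alike at 0.31 ± 0.07 for Kif3a (adjusted p = 0.00314), 0.29 ± 0.06 for Kif3b (adjusted p = 0.00199) and 0.29 ± 0.10 for Kifap3 (adjusted p = 0.0236). Per length, the ratio of Kif3a to Kif3b was 0.987 to 1.03 in rShh libraries and 0.954 to 1.03 in Control libraries, a pair chosen after its values were seen. The Kifap3 call was lost without any single rShh library (adjusted p up to 0.0665), and no kinesin-2 gene passed against 1.2-fold. With a trend on transcript length removed in each library, all 3 calls ended, at log2 changes of 0.14 for Kif3a (adjusted p = 0.114), -0.01 for Kif3b (0.901) and 0.11 for Kifap3 (0.308).

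The dynein-2 genes, which serve the way back, parted. Dync2h1, the heavy chain that holds the motor, had 24.7, 28.6 and 28.9 CPM in rShh libraries, against 18.7, 16.3 and 11.1 CPM in Control libraries. Every rShh library was higher although the Control libraries were spread, and the log2 change was 0.84 ± 0.17 (adjusted p = 0.00143). Dync2li1, the light intermediate chain that binds the heavy chain, had 13.0, 11.6 and 11.2 CPM in rShh libraries, against 17.0, 16.0 and 18.4 CPM in Control libraries. It was lower in each rShh library and fell by 0.52 ± 0.11 on the log2 scale (adjusted p = 0.00174).

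The BBSome and its chaperonins held 5 genes that rose, none that fell and 4 that did not pass. Over all genes tested 31.5% rose and 28.8% fell. The median log2 change of the BBSome group was 0.29. Bbs7, a scaffold subunit (ENSRNOG00000015816, chromosome 2, 123283388 to 123323170), had 23.6, 24.6 and 21.0 CPM in rShh libraries, against 10.5, 7.99 and 8.34 CPM in Control libraries. The lowest rShh library was far above the highest Control library, and the log2 change was 1.37 ± 0.13 (adjusted p = 8.44e-06). Bbs7 shares 11493 bases with Exosc9 on the other strand, and the strand setting of the counting is not given in the sources used here. Exosc9 itself had 10083 counts over all libraries, against 6054 for Bbs7, and a log2 change of 0.39.

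Bbs10 and Bbs12 encode chaperonin-like proteins that fold subunits for BBSome assembly. Bbs10 had 6.58, 7.95 and 6.16 CPM in rShh libraries, against 4.81, 3.28 and 4.04 CPM in Control libraries. Bbs12 had 6.30, 7.07 and 5.51 CPM in rShh libraries, against 4.01, 3.37 and 5.26 CPM in Control libraries. Both were low and higher in every rShh library, though the Bbs12 groups nearly met; the log2 changes were 0.77 ± 0.18 for Bbs10 (adjusted p = 0.00427) and 0.58 ± 0.19 for Bbs12 (adjusted p = 0.0244). The Bbs12 call was lost without Control replicate 1 (adjusted p = 0.0521), Control replicate 2 (0.0827), rShh replicate 1 (0.0627) or rShh replicate 2 (0.0974). Bbs5 and Bbs1 rose by 0.35 ± 0.12 and 0.29 ± 0.11, with adjusted p of 0.0282 and 0.0371. Leaving out Control replicate 3, or replicate 1 or 2 of rShh, ended both calls, as did leaving out Control replicate 2 for Bbs5 and Control replicate 1 for Bbs1 (adjusted p up to 0.1 and 0.14). The other BBSome subunits Bbs2, Bbs4, Bbs9 and Ttc8 did not pass, with log2 changes from -0.11 for Bbs9 to 0.28 for Bbs4.

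The transition zone and ciliary base held the widest changes in both directions, with 4 genes higher, 4 lower and 5 not passing. Over all genes tested 31.5% were higher and 28.8% lower. Cep290, whose long coiled-coil protein links axoneme and membrane at the gate, is on chromosome 7 at 40217269 to 40306327 (ENSRNOG00000056458). It had 10.3, 11.1 and 11.0 CPM in rShh libraries, against 2.51, 1.53 and 1.46 CPM in Control libraries. The groups did not come near each other, and Cep290 rose 5.86-fold, a log2 change of 2.55 ± 0.21 (adjusted p = 3.49e-06). Behind these values were 666, 769 and 717 counts in rShh libraries and 142, 82 and 74 in Control libraries. Cep290 shares 1340 bases with RGD1307947 on the other strand, which had a log2 change of 0.27. RGD1307947 had 2392 counts over all libraries, against 2450 for Cep290.

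Tctn1, a tectonic protein of the membrane part of the gate that mouse embryos need for Hedgehog signalling, went the other way (ENSRNOG00000028523, chromosome 12, 39790965 to 39824064). It had 11.5, 13.8 and 15.2 CPM in rShh libraries, against 34.5, 31.7 and 41.1 CPM in Control libraries. No rShh library came near the Control libraries, and Tctn1 fell by 1.41 ± 0.13 on the log2 scale, 2.65-fold (adjusted p = 7.47e-06). It shares 1428 bases with Hvcn1 on the other strand, which had 91 counts over all libraries against 8422 for Tctn1. Hvcn1 had a log2 change of 2.83. The related gene Tctn3 was low at 2.31 ± 0.47 CPM in rShh and 2.68 ± 0.34 CPM in Control (SD, n = 3 each) and did not pass (adjusted p = 0.453).

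Ofd1, which caps the end of the centriole and is on chromosome X in the deposited table, had 18.5, 18.3 and 16.9 CPM in rShh libraries, against 9.34, 6.84 and 5.58 CPM in Control libraries. The groups were separate with more spread in Control, and Ofd1 rose 2.47-fold (adjusted p = 8.85e-05). Rpgrip1l, a scaffold of the gate, averaged 52.3 ± 1.51 CPM in rShh and 29.8 ± 6.80 CPM in Control and rose by 0.81 ± 0.13 (adjusted p = 4.24e-04). Tmem67, a receptor-like membrane protein, averaged 11.0 ± 0.59 CPM in rShh and 7.36 ± 1.301 CPM in Control (SD, n = 3 each) and rose by 0.58 ± 0.15 (adjusted p = 0.00607). Mks1, B9d2 and Tmem216, which belong to the same membrane-bound module as Tctn1 and Tmem67, fell by 0.53 ± 0.13, 0.45 ± 0.15 and 0.44 ± 0.14, with adjusted p of 0.00441, 0.0231 and 0.0166. The B9d2 call was lost without Control replicate 3 or rShh replicate 1 (adjusted p up to 0.0919), and the Tmem216 call without rShh replicate 3 (adjusted p = 0.0634). B9d1, Cc2d2a, Tmem231 and Nphp4 did not pass, at log2 changes of -0.48, 0.13, -0.04 and 0.03.

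All 5 ARL and membrane delivery genes passed, 2 higher and 3 lower, where 60.3% of all genes tested passed. Arl13b, a GTPase of the ciliary membrane and a common marker of cilia, had 19.2, 25.5 and 23.2 CPM in rShh libraries, against 10.9, 10.8 and 9.15 CPM in Control libraries. Every rShh library was well above the Control libraries, and the log2 change was 1.14 ± 0.13 (adjusted p = 3.20e-05). Arl13b shares 878 bases with AABR07055288 on the other strand. That gene had 182 counts over all libraries, against 6194 for Arl13b, and a log2 change of 2.19. Arl3, the GTPase that Arl13b activates and that releases lipid-tailed cargo in the cilium, averaged 59.2 ± 1.29 CPM in rShh and 69.9 ± 1.64 CPM in Control (SD, n = 3 each). It fell by 0.24 ± 0.06 on the log2 scale (adjusted p = 0.0048) but did not pass against 1.2-fold (edgeR glmTreat, adjusted p = 0.527). The transcripts of the GTPase and its activator thus moved in opposite directions, and their proteins were not measured.

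Inpp5e, a lipid phosphatase whose place in the cilium depends on Arl13b, had 11.7, 9.93 and 10.6 CPM in rShh libraries, against 14.9, 17.3 and 14.4 CPM in Control libraries. Tulp3, the adaptor that carries receptors into the cilium with IFT-A, had 42.6, 48.2 and 45.6 CPM in rShh libraries, against 57.8, 59.0 and 60.6 CPM in Control libraries. Both were lower in each rShh library, and fell by 0.53 ± 0.12 (adjusted p = 0.00283) for Inpp5e and 0.38 ± 0.07 (adjusted p = 8.00e-04) for Tulp3. Arl6, which brings the BBSome to membranes, rose by 0.37 ± 0.13 (adjusted p = 0.0256). Leaving out Control replicate 2, or replicate 1 or 3 of rShh, ended that call (adjusted p up to 0.112). Of the 31 cilium genes that passed, 22 kept their call whichever library was left out, 14 higher and 8 lower. The matching share of all genes called is not given here, so this count is not a trait of the cilium genes.

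Levels of different genes were compared per length, as deposited FPKM (fragments per length of transcript and size of library). The median cilium gene had 4.77 FPKM in rShh and 4.01 FPKM in Control, while the median of all genes tested was 5.72 FPKM in rShh and 5.23 FPKM in Control. Arl3 led in both groups at 36.7 ± 0.21 FPKM in rShh and 43.1 ± 0.76 FPKM in Control. Tulp3 had 26.8 ± 2.07 FPKM in rShh and 34.5 ± 0.56 FPKM in Control, and Ift43 had 25.6 ± 1.29 FPKM in rShh and 37.6 ± 4.28 FPKM in Control (SD, n = 3 each). The libraries of Tulp3 and Ift43 overlapped within each group, so their order is not set. Ift20, Ift52, Ift57 and Ift46 followed, and in rShh also Kifap3, which gave 8 cilium genes above 10 FPKM in rShh and 7 in Control. Of all genes tested, 35.9% were above 10 FPKM in rShh and 34.9% in Control. At the low end, averaged over all libraries, were Cep290, Tctn3 and Dync2h1. Cep290 had 0.995 ± 0.05 FPKM in rShh and 0.167 ± 0.06 FPKM in Control, Tctn3 had 1.08 ± 0.20 FPKM in rShh and 1.25 ± 0.16 FPKM in Control, and Dync2h1 had 1.79 ± 0.18 FPKM in rShh and 0.994 ± 0.26 FPKM in Control (SD, n = 3 each). The 3 highest genes all fell and the lowest, Cep290, rose. Of the next highest, Ift52 fell while Ift20, Ift57 and Ift46 did not pass. Of the next lowest, Tctn3 did not pass and Dync2h1 rose. A link between level and direction was not tested.

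**Figure D3:**
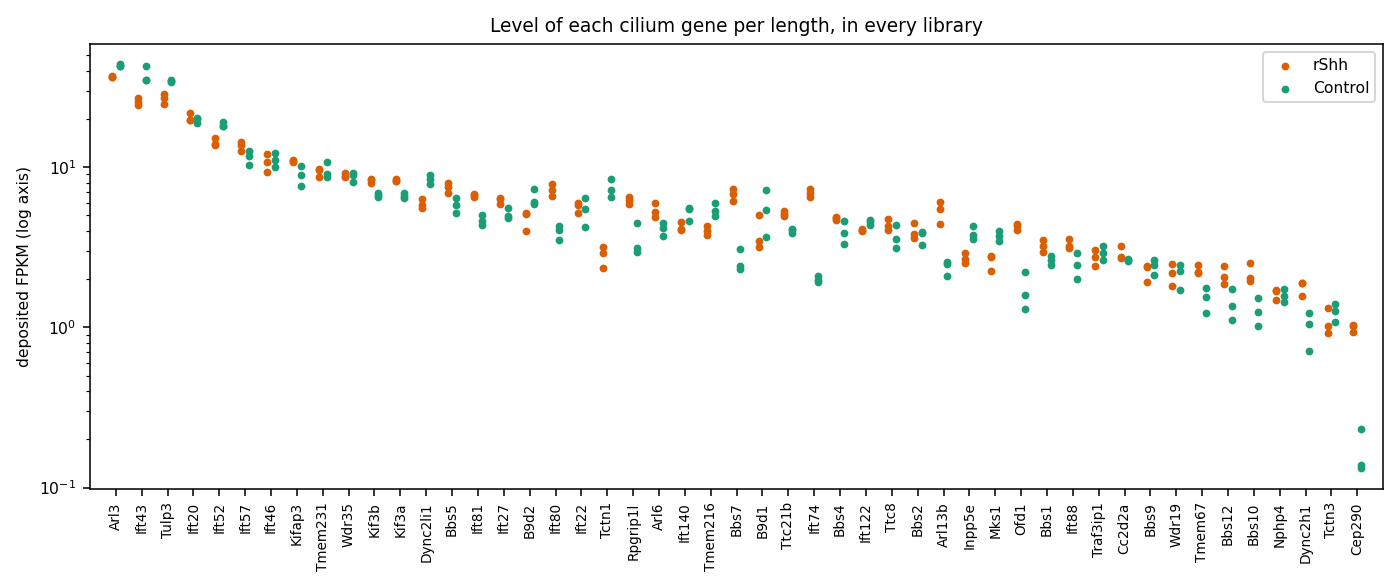
Each cilium gene is placed by its mean level over all libraries (horizontal axis) and its deposited FPKM in every library is shown on a log axis, rShh points left of Control points. Arl3 leads at 36.7 FPKM in rShh and 43.1 FPKM in Control, and Cep290 is lowest at 0.995 FPKM in rShh and 0.167 FPKM in Control.

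The change of a cilium gene went with the length of its longest transcript. Spearman's rho between length and log2 change was 0.37 over the 49 cilium genes and 0.19 over all 14775 genes, and 0.07 over 85 related cilium genes, all from the same libraries. Of 14 cilium genes up to 2000 nt 2 rose and 6 fell, against 21.8% and 33.0% of all genes of that length. Of 22 between 2000 and 4000 nt 12 rose and 3 fell, against 35.5% and 27.4%. Of 13 above 4000 nt 6 rose and 2 fell, or 46.2% and 15.4%, near the 47.8% and 21.2% of all genes. Length also went with differences inside both groups, most in Control. The deviation of Control replicate 3 from its group had a rho of -0.41 with length over the cilium genes and -0.24 over all genes. That of Control replicate 1 had 0.28 and 0.20, and that of Control replicate 2 had 0.18 and 0.05. In rShh, replicate 2 had 0.26 and 0.12, replicate 1 had -0.16 and -0.09, and replicate 3 had -0.06 and -0.03. With a trend on length removed in each library, an alternative chosen after seeing the data, 15 cilium genes rose and 12 fell. The shares of all genes under it were 29.2% higher and 30.6% lower. Cep290 then had a log2 change of 2.17, Ift74 of 1.74, Dync2h1 of 0.38 and Tctn1 of -1.61, each still past the threshold. Besides the kinesin-2 genes, the calls for Ttc21b (adjusted p = 0.126), Ift88 (0.0974), Bbs1 (0.529) and B9d2 (0.0597) were lost.

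**Figure D4:**
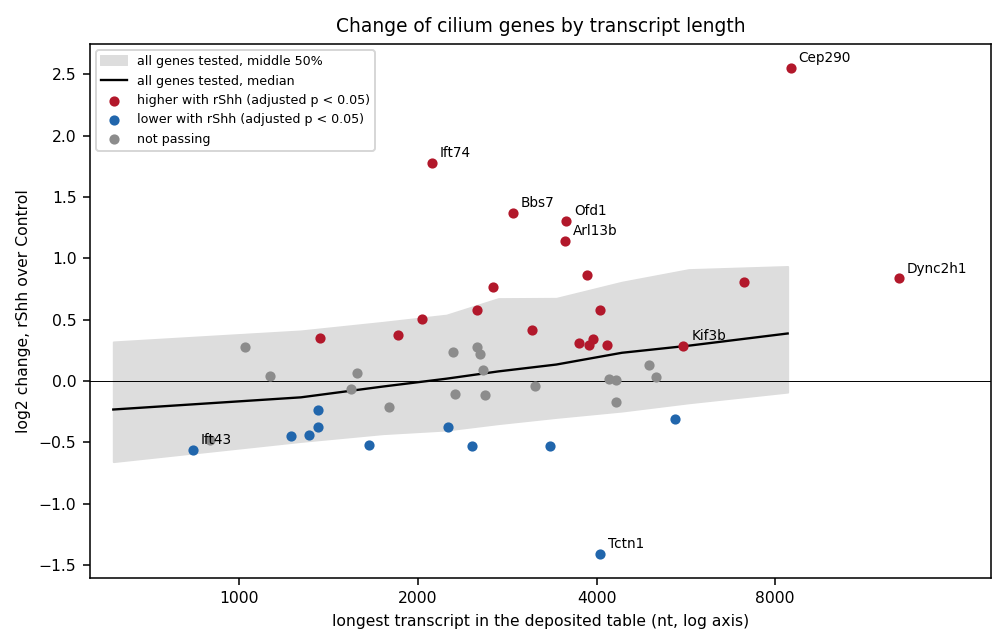
The log2 change (rShh over Control) of each cilium gene is plotted against the length of its longest transcript on a log axis, over the median and the middle 50% of all genes tested. The median of all genes runs from -0.23 for the shortest to 0.39 for the longest, and Cep290, Ift74, Bbs7, Ofd1 and Arl13b lie farthest above that line and Tctn1 farthest below it.

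The deposited isoform table lists 68 transcripts of the cilium genes, and 18 genes have more than 1. Of 55 transcripts with a mean of at least 1 FPKM, 15 were higher and 10 lower with rShh (limma on log2(FPKM + 1), adjusted p below 0.05), against 28.8% higher and 27.7% lower of 13699 isoforms tested. Both leading transcripts of Kif3a are given here. The 3737-nt transcript, the minor form, had 3.10, 2.67 and 4.17 FPKM in rShh libraries, against 2.36, 1.74 and 1.68 FPKM in Control libraries. Its 2279-nt transcript had 8.81, 9.50 and 7.42 FPKM in rShh libraries, against 7.29, 8.80 and 8.08 FPKM in Control libraries. The longer form was higher in every rShh library (log2 change 0.55 ± 0.16, adjusted p = 0.0271), while the groups of the shorter form overlapped (0.08 ± 0.11, adjusted p = 0.567). The call for the longer form was lost without Control replicate 2 (adjusted p = 0.0762), Control replicate 3 (0.0781), rShh replicate 1 (0.0589) or rShh replicate 3 (0.0752), and with no FPKM filter (0.0588). The difference between the forms was not tested.

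For Arl13b, Tmem231 and Ift46 the split between transcripts swung from library to library. The 3535-nt form of Arl13b had 1.42, 6.15 and 1.28 FPKM in rShh libraries, and its 3481-nt form had 3.12, 0 and 4.34 FPKM in the same libraries. Neither form passed (adjusted p = 0.447 and 0.392), whereas the gene as a whole did. Both leading forms of Bbs9 stayed within their spread (adjusted p = 0.22 and 0.635).

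Genes around these complexes were read from lists by role, and in each list the genes named are those with the smallest p. The counts stand beside 31.5% higher and 28.8% lower over all genes tested. Of 16 other IFT, BBSome and motor subunits 3 rose and 3 fell. The dynein-2 intermediate chain Wdr34 fell by 1.22 ± 0.23 and the dynein light chain Dynlt1 by 0.57 ± 0.07, while the BBSome regulator Lztfl1 rose by 0.81 ± 0.15. Of 13 other transition zone and inversin compartment genes 4 rose and 5 fell, and the smallest p belonged to Tmem80 (-0.91 ± 0.11), the inversin compartment protein Anks6 (-0.70 ± 0.09) and Tmem17 (-0.85 ± 0.13). Of 22 basal body and distal appendage genes 10 rose and 3 fell. The distal appendage genes Sclt1 and Cep83 rose by 1.34 ± 0.16 and 1.31 ± 0.11, and the centrosomal Cep350 by 1.09 ± 0.13.

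Among 16 ciliary signalling and membrane genes 4 rose and 7 fell, where 31.5% of all genes tested rose and 28.8% fell. Ptch1, the Hedgehog receptor and a known target of the pathway, rose by 1.38 ± 0.11, Smo, the Smoothened gene, fell by 0.88 ± 0.07, and the adenylyl cyclase Adcy6 fell by 0.55 ± 0.05. Of 5 RFX family and ciliogenesis transcription factors tested, Rfx1 fell by 0.85 ± 0.12 and Rfx5 fell by 0.25 ± 0.09. Not every RFX gene on that list is a ciliogenesis factor. Rfx2 rose but averaged 0.739 ± 0.32 CPM in rShh and 0.121 ± 0.11 CPM in Control (SD, n = 3 each). Of 13 cilium disassembly and length regulators 9 rose and 2 fell, the smallest p belonging to Tpx2 (2.07 ± 0.08), Plk1 (1.69 ± 0.12) and Aurka (1.49 ± 0.13), which also act in mitosis. All proliferation markers rose too, those with the smallest p being Cenpf (3.20 ± 0.08), Top2a (2.78 ± 0.10) and Ccna2 (2.42 ± 0.09). The part of proliferation in the changes of the cilium genes was not tested. Of 123 further genes that the deposited table annotates to the GO term cilium, a list added after the values were seen, 37.4% rose and 24.4% fell.

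**Figure D5:**
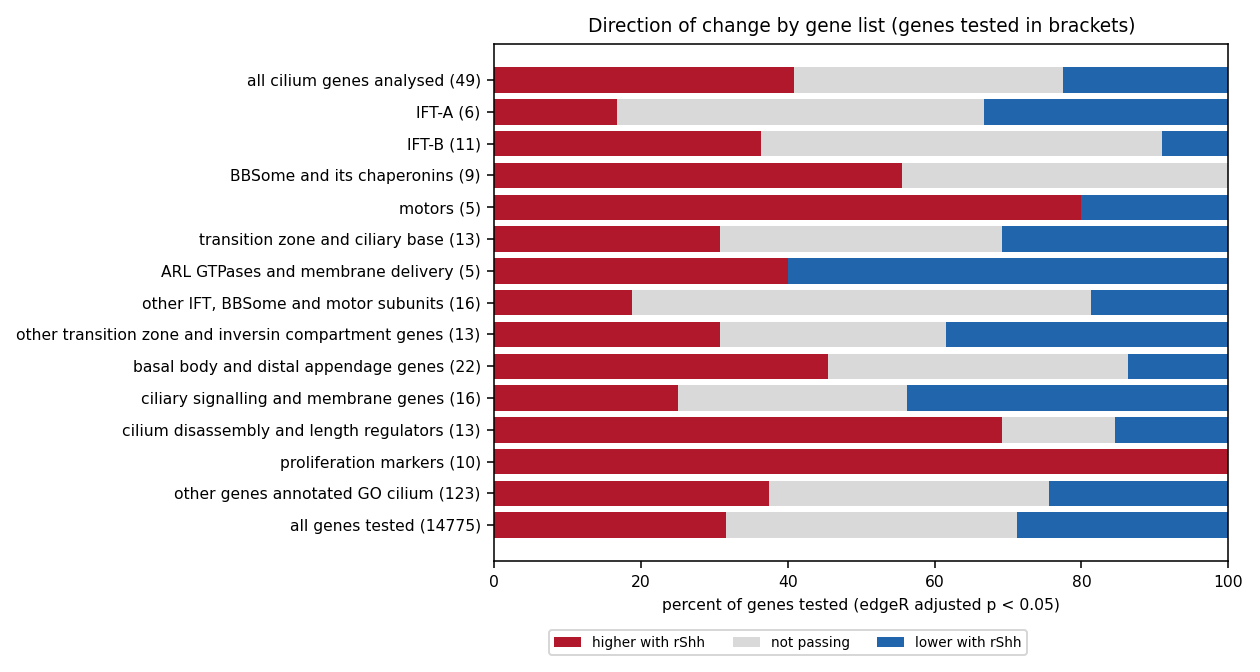
Bars give the percent of tested genes in each list that rose (red), did not pass (grey) or fell (blue) with rShh, with the number tested in brackets. The cilium genes as a whole, at 40.8% higher and 22.4% lower, lie near all genes tested at 31.5% and 28.8%, and the disassembly regulators and proliferation markers are mostly higher.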

How the data were processed

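Poly(A) RNA of 6 libraries, 3 rShh and 3 Control, was sequenced as 150-nt paired ends after dUTP marking of the second strand, per the labels' protocols. The tools named in the submitters' processing notes are StringTie 1.3.4d, HISAT2 2.0.4, cutadapt 1.9, edgeR and DESeq2, without their roles. Neither the build of the genome nor how strand was treated in counting is given in the sources used here. The authors deposited whole-number counts per gene and per isoform, not normalized. The deposited FPKM values were scaled by the authors to transcript length and library size, per the file headers. No column of another sample was in the tables (0).

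Genes were matched by symbol. Gene counts were tested with edgeR 4.0.16 (R 4.3.3), using TMM scaling, filterByExpr at a minimum count of 10, glmQLFTest, glmTreat against 1.2-fold, and Benjamini-Hochberg adjustment over 14775 genes at 0.05. CPM were computed on TMM-scaled totals. Isoforms with a mean of at least 1 FPKM went into a limma-trend fit (limma 3.58.1) of log2(FPKM + 1), a scale that understates changes of low transcripts. SE and SD are named where printed. Libraries of a group differed beyond counting error (chi-square per degree of freedom at least 10.5), and the biological coefficient of variation was 12.7%. The fits were also run on simulated counts in which only a small part of the genes changed. That run cannot check the scaling in these data, where 60.3% of genes tested passed. Members, gene lists and motifs were chosen with earlier results of these data known; other motif strings were tried and are not reported. Full values were given to the 3 genes with the smallest p in each role group and to Ift88, Kif3a, Arl13b, Ift20 and Cep290, related lists name their 3 smallest p, and transcripts are described for the 5 genes whose 2 leading forms differed most.

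Of the 49 genes, 12 overlap another gene, most on the other strand, among them Bbs7, Ift140, Tctn1, Arl13b and Cep290; how such reads were split is not given in the sources used here, so their values are uncertain to that extent. Alternatives were another scaling, count filter, tool, FPKM pseudocount, the replicate number as a block, leaving out each library, and removal of a trend on transcript length.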

Additional observations from a re-analysis of the deposited data

How the results depend on the processing

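The count of cilium genes that rose, 20 in the main analysis, was 13 with limma on quantile-normalized log2(FPKM + 1), 15 with upper-quartile scaling, 15 with the length trend removed, and 17 to 20 under the other scalings, filters and tools, DESeq2 among them with 20. It was 14 to 19 when 1 library was left out. The count that fell, 11, was 10 to 13 under the same alternatives and 9 to 11 with a library left out. The shares of all genes moved too, from 31.5% higher and 28.8% lower in the main analysis. They were 30.4% and 38.4% with quantile normalization, 28.9% and 32.5% with upper-quartile scaling, and 29.2% and 30.6% with the length trend removed. With a library left out, 27.8% to 32.2% of all genes were higher and 24.6% to 28.8% lower. The count beyond 1.2-fold, 18, was 14 to 20 with a library left out, and 7 passed against 1.5-fold, a stricter demand. Against 1.5-fold 22.1% of all genes tested passed. The isoform count, 25, was 15 to 26 with a library left out. It was 16 without rShh replicate 1 and 15 without rShh replicate 3, and the cause was not tested. Shares of all genes beyond 1.2-fold and of all isoforms with a library left out are not given here. Whether these ranges are particular to the cilium genes was not tested. With upper-quartile scaling the calls for Arl6, Bbs1, Bbs5, Ift88 and Kifap3 were lost, and with the length trend removed Ift122, Ift27 and Wdr35 gained one. Of 375 values of the named genes under alternatives, 351 kept their direction and side of the threshold, 21 kept only the direction and 3 reversed: Kif3b at -0.0099 with the length trend removed, and Ift20, which never passed, at -0.024 with upper-quartile scaling and at -0.0006 without rShh replicate 3, within a range of -0.0006 to 0.074 with a library left out. Of the 31 genes called, 17 kept their call under all 18 alternatives, and Cep290 kept it under the 15 in which it was tested, being below the FPKM filter in the rest. How many of all genes called did so is not given here.

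The labels number the replicates 1 to 3 in both groups, and no sign of pairing by number was seen. Correlations of same-numbered deviations were -0.0835, -0.0071 and -8e-04, and those of other pairs were -0.0707 to 0.0765. With 3 libraries per group, such values cannot exclude that libraries shared a culture or animal. With the number as a block, 21 cilium genes rose, 11 fell, 16 changed beyond 1.2-fold and 18 isoforms changed. The block gave 30.3% higher and 26.9% lower over all genes in the plain test. Under the block, shares of all genes beyond 1.2-fold and of all isoforms are not given here.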
